A study of Mus musculus with 4 samples.

Results

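The 45 genes described here encode the machinery that licenses and copies DNA: the origin recognition complex, the licensing factors, the MCM2-7 helicase with its activators, the replicative polymerases, the sliding clamp and its loader, replication protein A, the enzymes of Okazaki fragments and of deoxynucleotide synthesis, and topoisomerase II alpha. They were taken by name from the 37311 gene identifiers in the files. All 45 had an identifier, and all 45 were among the 13809 genes that passed the count filter.

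In a dividing cell, the origin recognition complex marks origins, and Cdc6 and Cdt1 then load the ring-shaped MCM helicase onto DNA in G1, which licenses each origin for a single round of copying. In S phase, Cdc45 and GINS join MCM to form the active helicase, primase and polymerase alpha start each strand, and polymerases delta and epsilon extend them behind the PCNA clamp that replication factor C loads. Mouse embryonic stem cells divide rapidly with a short G1 phase, so many of these genes are well expressed in them, and E2F transcription factors are known regulators of many of their promoters.

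The cells were J1 mouse embryonic stem cells (129S4/SvJae) kept without feeder cells on gelatin in serum and LIF, and infected with a short hairpin targeting eIF4A3, a core helicase of the exon junction complex. The hairpins were sheIF4a3-2 and sheIF4a3-3, and the labels do not say which of these 2 each replicate received. Puromycin at 1 µg/mL was applied for 3 days, cells were taken on day 4.5, and translation was stopped with cycloheximide (0.1 mg/mL, 1 min). Ribosome-protected fragments (RPF), the stretches of mRNA that ribosomes shield from nuclease, and total RNA were each sequenced from 2 replicates, giving 4 libraries. All 4 came from knockdown cells, so every comparison below is between the 2 fractions within the knockdown; no library of unmodified cells was analysed, and no value below measures an effect of the knockdown.

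Eif4a3, the targeted gene, had 1640 and 1325 RPF counts and 1229 and 975 total RNA counts. Its transcript was thus still counted in every library, with no control level to set it against. Gene counts per library lay between 7615277 and 9434987. All 8 embryonic stem cell markers checked were expressed, with mean total RNA levels between 139 (Fgf4) and 1050 (Zfp42) CPM (TMM-normalised counts scaled to a library of fixed size), and none of 6 fibroblast markers reached 10 CPM there. Of 6 trophectoderm markers, 2 passed 10 CPM in total RNA, and the highest was Krt8 at 20.5 CPM. Of 6 primitive endoderm markers, 2 did, and the highest was Lama1 at 252 CPM. The summed primitive endoderm markers lay between 995 and 1045 CPM in RPF and between 479 and 511 CPM in total RNA. Most of each sum came from Lama1 and Col4a1 (214 CPM in total RNA). The transcription factors Gata4 (9.10 CPM), Gata6 (8.67) and Sox17 (2.72) stayed under 10 CPM in total RNA, as did Dab2 (7.89). The trophectoderm markers summed to 79.2 and 90.0 CPM in RPF and to 33.0 and 36.9 CPM in total RNA. Their part in the replication gene results was not tested.

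Reading of an mRNA begins at its start codon, and the bases around it are shown here for the genes whose ratios of RPF to total RNA lay at the ends of the range described below. The first 5 are the genes with the highest ratios and the other 3 those with the lowest. Each window runs from 9 bases before the start codon (GENCODE M21 principal transcript, GRCm38), with the start codon in capitals, to 3 bases after it.
Gmnn: agctgaaaaATGaat
Mcm3: agctgcgacATGgcg
Pcna: tccgccaccATGttt
Lig1: gtacaactgATGaga
Rrm1: ctagcggcgATGcat
Orc2: ttggccacaATGagc
Orc4: ttaatcgagATGagc
Gins3: cgagctgccATGtcc
A purine 3 bases before the start codon, the most conserved feature of the vertebrate initiation context, stood in 41 of the 45 members (91.1%) and in 85.1% of 12640 tested protein-coding genes. A G directly after the start codon stood in 21 members (46.7%) and in 53.4% of those genes. Both features together were present in 20 members (44.4%) and in 45.3% of the coding genes. Lig1 was the exception among the windows shown, with a C at the position of the purine, and it had the highest ratio of all members. The median 5′ leader was 125 bases long in the members and 180 bases in the tested coding genes. An ATG upstream of the start codon was found in 16 members (35.6%) and in 51.2% of the coding genes. The median log2 ratio of RPF to total RNA was 0.69 over the 16 members with an upstream ATG and 0.61 over the 29 without.

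E2F-type sites were searched as TTTCCCGC, TTTCGCGC, TTTGCCGC and TTTGGCGC on both strands, in RefSeq windows from 250 bases before to 50 bases after each transcription start (GRCm38.p6). A match was found in 15 of the 37 members that had a window (40.5%), in 10 of 40 other replication genes (25%), in 482 of 9995 tested protein-coding genes (4.82%) and in 2.6% of the 27025 genes of the promoter table. The shorter sequence CCAAT was found in 24 of the 37 members (64.9%), in 43.2% of the tested coding genes and in 41.1% of the table. The 7 windows below, 30 bases each on the gene's strand with a match in capitals, are from 4 MCM subunits, from Cdc6, and from the members with the highest and the lowest ratio. In the Mcm5 and Mcm6 windows, another match on the opposite strand overlaps the one in capitals.
Cdc6, chr11:98908002-98908031, plus strand: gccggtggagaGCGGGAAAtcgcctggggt
Mcm3, chr1:20820275-20820304, minus strand: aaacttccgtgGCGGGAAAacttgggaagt
Mcm5, chr8:75109345-75109374, plus strand: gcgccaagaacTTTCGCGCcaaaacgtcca
Mcm6, chr1:128359797-128359826, minus strand: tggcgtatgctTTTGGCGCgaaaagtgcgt
Mcm7, chr5:138171849-138171878, minus strand: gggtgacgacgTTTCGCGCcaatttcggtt
Lig1, chr7:13278841-13278870, plus strand: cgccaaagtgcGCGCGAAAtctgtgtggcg
Gins3, chr8:95633507-95633536, plus strand: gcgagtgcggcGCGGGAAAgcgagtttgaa
Members with a match were not confined to one end of the ratios: Lig1 and Gins3, the extremes, both had one. Of the 15 with a match, 9 were higher in RPF than in total RNA and 1 was lower, with a median log2 ratio of 0.84. Of the 22 without a match, 14 were higher and 1 was lower, with a median of 0.60. No test of the difference was made, and a match describes letters in a window and no binding.

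Most of the replication genes were represented more strongly among ribosome-protected fragments than in total RNA. In edgeR's quasi-likelihood test with Benjamini-Hochberg adjustment over all 13809 genes, 28 of the 45 members were higher in RPF (62.2%), 2 were lower and 15 did not pass. Over all tested genes, 20.5% were higher and 21.2% were lower. The median log2 ratio was 0.67 over the members and -0.024 over all tested genes, and 38 members lay above 0. The members ranged from -0.76 (Gins3) to 1.35 (Lig1), and 7 of the 28 were at least 2-fold higher. The RPF and total RNA libraries did not overlap in 41 members (91.1%), against 72.8% of all tested genes. The members took 1.00% and 0.891% of gene counts in RPF replicates 1 and 2, and 0.836% and 0.713% in total RNA. The 95% Wilson intervals were 0.997 to 1.01% and 0.884 to 0.897% in RPF, and 0.830 to 0.842% and 0.707 to 0.719% in total RNA; these intervals cover counting error only.

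**Figure D1:**
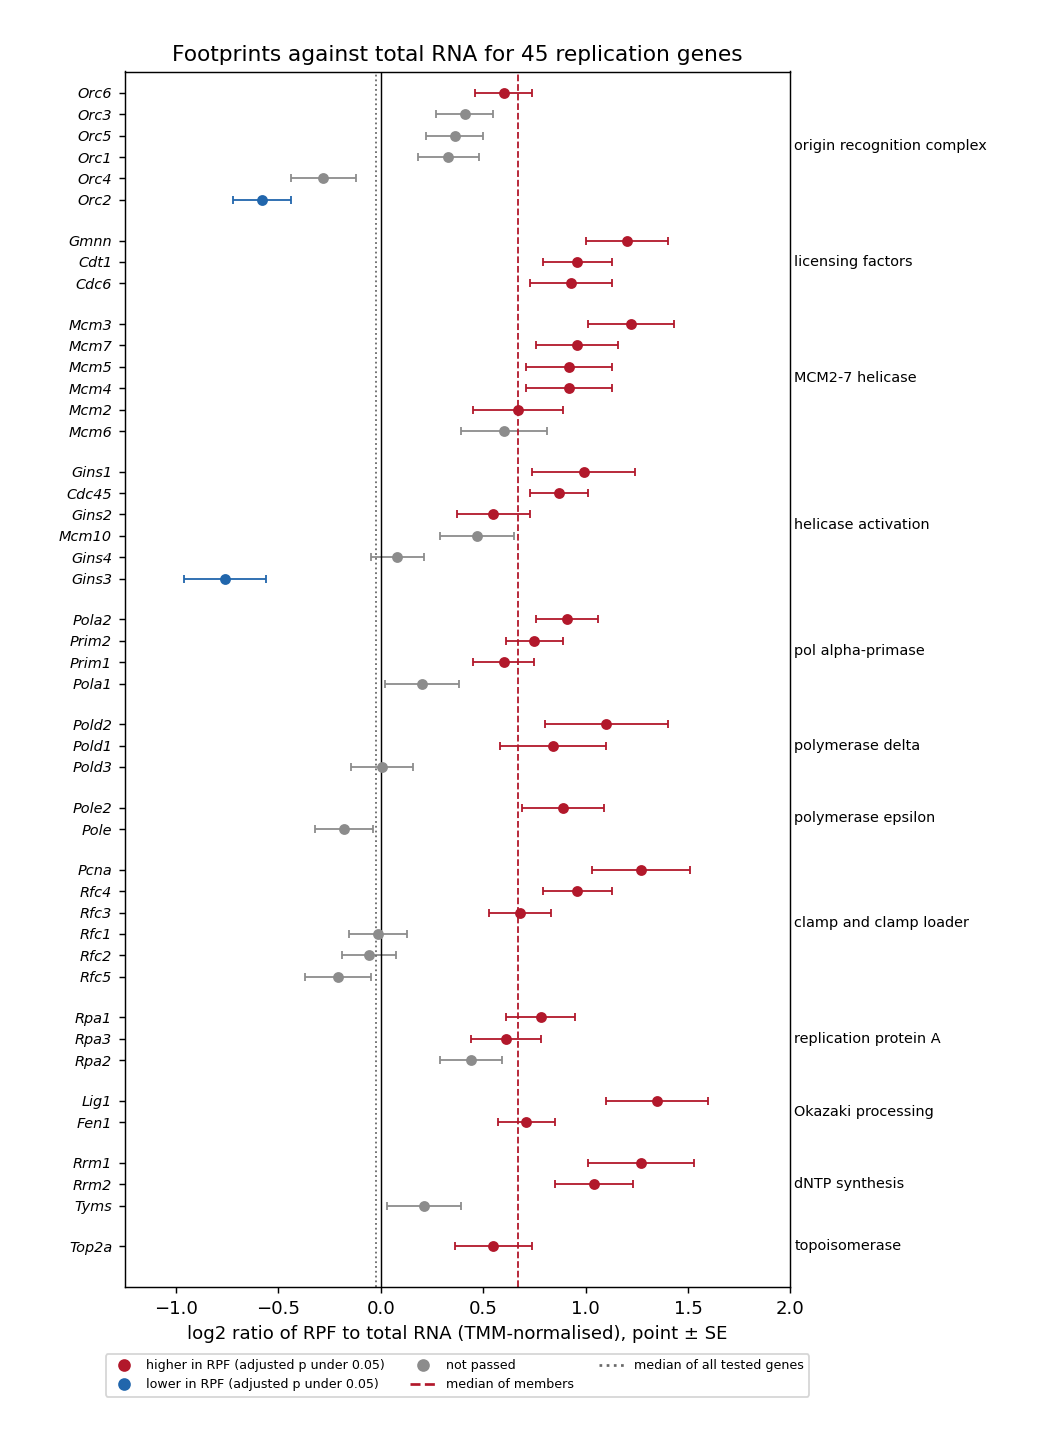
Log2 ratio of RPF to total RNA (horizontal axis, TMM-normalised) for the 45 replication genes by complex, as point ± SE of the edgeR fit over 2 libraries per fraction; the dashed line is the members' median (0.67) and the dotted line the median of all tested genes (-0.024). Red points (28) passed as higher in RPF, blue points (Orc2 and Gins3) as lower, and grey points (15) did not pass.

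How far the members stood above 0 depended on the scaling. With library size alone in place of trimmed means (TMM), the all-gene median went from -0.024 to -0.46 and the members' median from 0.67 to 0.23. Members then counted 11 higher and 7 lower, and 61.1% of the members' calls were higher in place of 93.3%; over all genes the share of higher calls was 19.8% in place of 49.2%. Orc1, Orc3, Orc5, Gins4, Pola1, Pold3 and Tyms, none of which had passed, then lay below 0. A change of scaling moves all ratios by nearly the same amount. The distance between the 2 medians, 0.69 under both scalings, therefore cannot show which scaling is right. The ratios below are read relative to the bulk of genes. Without total RNA replicate 2, the fit called 14 members higher and none lower, with 2 lower at an unadjusted p under 0.05. The 16 calls lost there were those of Orc2, Orc6, Mcm2, Mcm4, Mcm5, Mcm7, Gins2, Gins3, Prim1, Pold1, Pole2, Rfc3, Rpa1, Rpa3, Fen1 and Top2a; without total RNA replicate 1 no lower call was left either, with 1 lower member at an unadjusted p under 0.05 in edgeR. Without RPF replicate 1, the calls of Mcm2 (0.44), Gins2 (0.34), Pold1 (0.45) and Top2a (0.40) were lost. The 8 genes called in the same direction under every alternative setting were Cdt1, Gmnn, Mcm3, Pola2, Pcna, Lig1, Rrm1 and Rrm2. The sign of all 30 called members was the same under all of these settings.

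In the origin recognition complex, which marks origins and is the platform for helicase loading, 1 of the 6 subunits was higher and 1 was lower. The other 4 did not pass, and the median was 0.34. These counts were near the shares over all tested genes, 20.5% higher and 21.2% lower. Orc6, the smallest subunit, was at 199 and 182 CPM in RPF and at 124 and 126 CPM in total RNA (log2 ratio 0.60 ± 0.14 (SE), adjusted p = 0.0121, edgeR). Orc2, a core subunit, was at 126 and 116 CPM in RPF and at 192 and 171 CPM in total RNA (-0.58 ± 0.14, adjusted p = 0.0165, edgeR). The libraries of the 2 fractions were fully separate for both genes, in opposite directions. Exons of Nif3l1 overlap 29.8% of the Orc2 exons, and the strand setting of the counting is not given in the sources used here. Reads from the overlap may have been counted for either gene or set aside as ambiguous, so the Orc2 value is uncertain. Orc1, the ATPase subunit that is degraded and remade each cycle, had a ratio of 0.33 ± 0.15 and did not pass. Orc3 (0.41), Orc5 (0.36) and Orc4 (-0.28) did not pass either. Both calls were lost when either total RNA library was left out, and that of Orc6 also with library size alone, where its ratio was 0.17.

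All 3 licensing factors were higher in RPF, with a median of 0.96. Cdt1, which brings MCM to origins, stood at 394 and 335 CPM in RPF and at 202 and 173 CPM in total RNA (0.96 ± 0.17, adjusted p = 0.00445, edgeR). Geminin (Gmnn), the inhibitor that holds Cdt1 inactive after licensing, was at 152 and 109 CPM in RPF and at 62.1 and 51.4 CPM in total RNA. Its ratio of 1.20 ± 0.20 (adjusted p = 0.00383, edgeR) was above that of its target, though the SEs of the 2 genes meet and the difference was not tested. Cdc6, the ATPase that works with Cdt1, had the lowest ratio of the 3, at 119 and 93.5 CPM in RPF and 64.6 and 46.9 CPM in total RNA (0.93 ± 0.20, adjusted p = 0.0101, edgeR). For all 3, both RPF libraries lay above both total RNA libraries.

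Of the 6 subunits of the MCM2-7 helicase, which unwinds the DNA ahead of the polymerases, 5 were higher in RPF, with a median of 0.92. Mcm3 led with 985 and 810 CPM in RPF and 437 and 335 CPM in total RNA (1.22 ± 0.21, adjusted p = 0.00425, edgeR). Mcm6 was at 590 and 463 CPM in RPF and at 398 and 297 CPM in total RNA, the smallest ratio of the 6 (0.60 ± 0.21), and did not pass (adjusted p = 0.0556, edgeR). Its fractions did not overlap either, and its ratio was within 1 SE of that of Mcm2, which passed narrowly (adjusted p = 0.0479, edgeR). The Mcm2 call was lost under several alternatives, among them no count filter (0.63, adjusted p = 0.0566, edgeR) and protein-coding genes only (0.64, adjusted p = 0.0538, edgeR). Differences between subunits were not tested. Mcm7 (0.96), Mcm4 (0.92), Mcm5 (0.92) and Mcm2 (0.67) lay between. The ring holds its subunits in equal number, and their ratios spanned 0.60 to 1.22. Of the Mcm7 exons, 12.6% overlap other genes, among them Cops6 and the microRNA genes Mir25 and Mir93, and 35.3% of its 28-base stretches occur in another gene.

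The factors that turn the loaded MCM ring into a moving helicase were mixed. Cdc45, a fork helicase subunit, had 120 CPM in both RPF libraries and 71.5 and 60.2 CPM in total RNA (0.87 ± 0.14, adjusted p = 0.00393, edgeR). The 4 GINS subunits, which form a single tetramer, did not share a direction. Gins1 was higher, at 71.2 and 44.2 CPM in RPF and 32.4 and 25.8 CPM in total RNA (0.99 ± 0.25, adjusted p = 0.0181, edgeR). Its ratio was 0.61 without RPF replicate 1. Gins3 was lower, at 15.1 and 19.0 CPM in RPF and 29.7 and 28 CPM in total RNA (-0.76 ± 0.20, adjusted p = 0.0201, edgeR). Gins3 also had the fewest RPF counts of all members, 117 in replicate 1, and its ratio shrank to -0.30 after a correction for the coding share of its principal transcript (adjusted p = 0.26, edgeR). Gins4 stood near 0, at 110 and 116 CPM in RPF and 108 and 106 CPM in total RNA (0.081 ± 0.13, adjusted p = 0.649, edgeR). With a correction for coding share and exon length, Gins1 no longer passed (0.51, adjusted p = 0.144, edgeR) and Gins4 was lower (-0.52, adjusted p = 0.0191, edgeR). Gins2 was higher (0.55, adjusted p = 0.0418, edgeR), but exons of Gse1 overlap 67.3% of its exons, and its value is uncertain for that reason. Mcm10, which helps the helicases pass each other at initiation, had a ratio of 0.47 and did not pass.

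In the polymerase alpha-primase complex, which lays the RNA-DNA primers, the accessory and primase subunits were higher in RPF and the catalytic polymerase subunit did not pass. Pola2, the accessory subunit, was at 124 and 107 CPM in RPF and at 66.2 and 56.4 CPM in total RNA (0.91 ± 0.15, adjusted p = 0.00411, edgeR). Pola1, the catalytic subunit, was at 135 and 106 CPM in RPF and at 117 and 93.8 CPM in total RNA (0.20 ± 0.18, adjusted p = 0.408, edgeR). The fractions were apart for Pola2 and overlapped for Pola1. The primase subunits Prim2 (0.75) and Prim1 (0.60) were both higher.

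Polymerase epsilon, the leading-strand enzyme, had 1 subunit that passed and 1 that did not. Its accessory subunit Pole2 was higher, at 58.4 and 43.4 CPM in RPF and 30.3 and 24.9 CPM in total RNA (0.89 ± 0.20, adjusted p = 0.0121, edgeR). The catalytic subunit Pole was at 190 and 171 CPM in RPF and at 212 and 196 CPM in total RNA (-0.18, adjusted p = 0.355, edgeR). In polymerase delta, the lagging-strand enzyme, the catalytic subunit Pold1 was also higher (0.84 ± 0.26, adjusted p = 0.0379, edgeR). Pold2, its accessory subunit, had the highest ratio there, at 125 and 70.1 CPM in RPF and 54.2 and 36.8 CPM in total RNA (1.10 ± 0.30, adjusted p = 0.0234, edgeR). It was also the member whose replicates lay farthest apart, by 1.77-fold in RPF and 1.47-fold in total RNA. Its ratio was 0.63 without RPF replicate 1, and 0.59 with coding share and exon length corrected, where it did not pass (adjusted p = 0.149, edgeR). Pold3, which bridges to PCNA, was level between the fractions, at 65.0 and 56.7 CPM in RPF and 65.9 and 55.3 CPM in total RNA (0.0068, adjusted p = 0.976, edgeR).

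PCNA, the ring that holds polymerases on DNA, was at 747 and 554 CPM in RPF and at 317 and 220 CPM in total RNA (1.27 ± 0.24, adjusted p = 0.00601, edgeR). Of its 28-base stretches, 24.2% occur in another gene. Alignments that were not unique were tallied apart from the gene counts, so some of its reads may be missing, which was not tested. Replication factor C, the 5-subunit loader of the clamp, divided: Rfc4 (0.96 ± 0.17, adjusted p = 0.00532, edgeR) and Rfc3 (0.68, adjusted p = 0.0105, edgeR) were higher, and Rfc1, Rfc2 and Rfc5 did not pass. Rfc5 had the lowest ratio, at 170 and 176 CPM in RPF and 225 and 176 CPM in total RNA (-0.21, adjusted p = 0.328, edgeR). The large subunit Rfc1 was at 141 and 151 CPM in RPF and 154 and 141 CPM in total RNA, so the fractions overlapped. The sign for Rfc2 (-0.058) turned to 0.50 after correction for the coding share of its principal transcript (adjusted p = 0.0218, edgeR). Exons of Lat2 overlap 15.1% of the Rfc2 exons, those of Eif4a2 12.7% of Rfc4 and those of Wsb2 10.7% of Rfc5. Rfc1 and Rfc3 had no such overlap. Its bearing on the ratios was not tested.

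Replication protein A coats single-stranded DNA at the fork, and 2 of its 3 subunits were higher. Rpa1, the large DNA-binding subunit, was at 555 and 488 CPM in RPF and at 334 and 274 CPM in total RNA (0.78 ± 0.17, adjusted p = 0.0117, edgeR). Rpa3 was higher by 0.61 (adjusted p = 0.0283, edgeR) at a low level, with 190 counts in its shallowest library. With coding share and exon length corrected it stood at 0.11 (adjusted p = 0.646, edgeR). Rpa2, the subunit phosphorylated under replication stress, had the lowest ratio, at 204 and 174 CPM in RPF and 148 and 131 CPM in total RNA (0.44, adjusted p = 0.0565, edgeR), and did not pass.

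Both enzymes that finish Okazaki fragments were higher in RPF. Lig1 (ENSMUSG00000056394.9), the ligase that seals them, had the highest ratio of all 45 members, at 415 and 282 CPM in RPF and 162 and 111 CPM in total RNA (1.35 ± 0.25, adjusted p = 0.0059, edgeR). The lower RPF value was still well above the higher total RNA value. Fen1, the flap nuclease, was at 223 and 203 CPM in RPF and at 134 and 126 CPM in total RNA (0.71 ± 0.14, adjusted p = 0.00702, edgeR). Exons of Tmem258 and Gm10143 overlap 84.2% of the Fen1 exons, so its value is uncertain.

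Ribonucleotide reductase makes deoxynucleotides, and both of its subunit genes were higher. Rrm1, the large subunit, was at 409 and 265 CPM in RPF and at 166 and 115 CPM in total RNA (1.27 ± 0.26, adjusted p = 0.00854, edgeR). Rrm2, the small subunit that limits activity in S phase, had a ratio of 1.04 ± 0.19 (adjusted p = 0.00598, edgeR). Thymidylate synthase (Tyms), which makes dTMP, was at 88.7 and 66.3 CPM in RPF and at 72.5 and 61.6 CPM in total RNA; the fractions overlapped and it did not pass (0.21, adjusted p = 0.381, edgeR). Top2a, which untangles the copied strands, was at 864 and 698 CPM in RPF and at 561 and 503 CPM in total RNA (0.55 ± 0.19, adjusted p = 0.0484, edgeR), just inside the threshold.

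**Figure D2:**
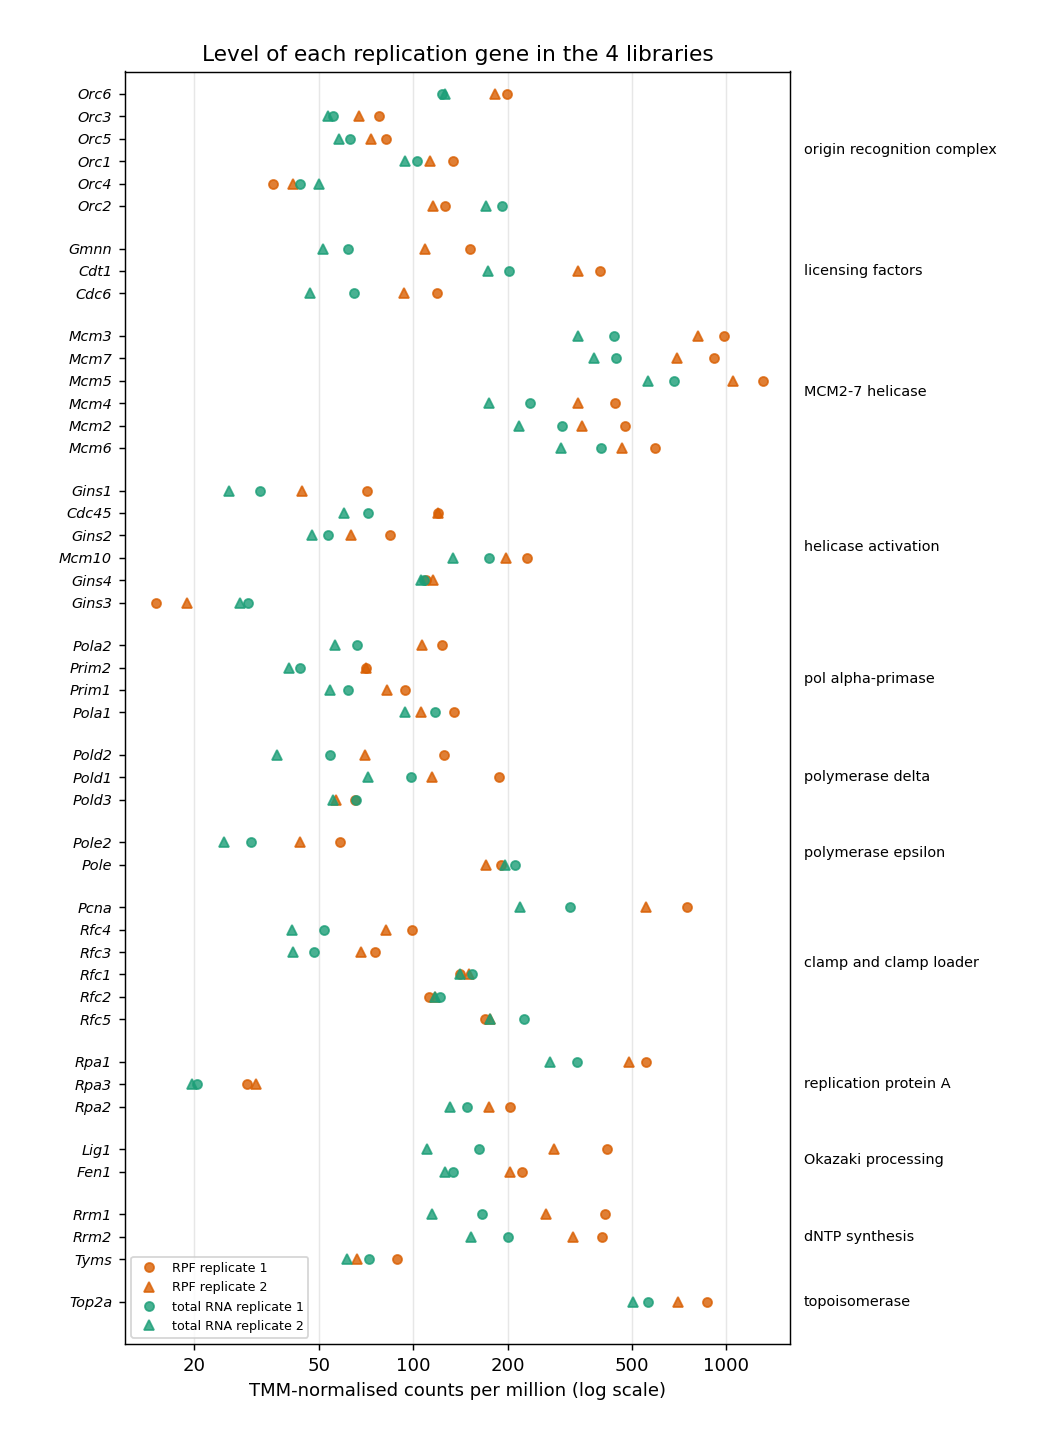
Level of each of the 45 replication genes in the 4 libraries, in TMM-normalised CPM on a log axis, grouped by complex; circles are replicate 1 and triangles replicate 2. RPF points (orange) lie to the right of total RNA points (green) for most genes under this scaling, for example Lig1 and Pcna, and to the left for Orc2 and Gins3; genes of different length should not be compared on this axis.

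Between genes, levels were compared per length: RPF counts were divided by coding length and total RNA counts by exon length, both from GENCODE M21. PCNA had the highest footprint density, 831 ± 174 (SD, n = 2) normalised CPM per coding kb, followed by Mcm5 at 534, Mcm7 at 372, Mcm3 at 369 and Rrm2 at 290. Mcm7 and Mcm3 were within the spread of their replicates (SD 71.1 and 50.8). At the other end stood Gins3 (25.8), Pole (26.2) and Pola1 (27.5), which also lay within their spread of each other. The density of PCNA was 34.6 and 28.5 times that of Pole in the RPF libraries and 6.95 and 5.23 times in total RNA. By complex, the median footprint density was 290 for MCM2-7, 233 for replication protein A, 115 for GINS and 73 for replication factor C. It was 53.8 for the origin recognition complex, 53.1 for polymerase alpha-primase and 45.7 for polymerase delta (Pold1, Pold2 and Pold3). MCM2-7 thus stood 5.39-fold above the complex that loads it. The density of Rrm2 was 1.93 and 2.40 times that of Rrm1 in RPF, and 4.81 and 5.29 times in total RNA. The exons annotated for Rrm1 sum to 11012 bases against 3997 in its principal transcript; with principal transcript length as the divisor for total RNA, the folds were 2.20 and 2.43, near those in RPF.

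Subunits of one complex were not present at equal densities in either fraction. In the origin recognition complex, Orc6 stood 7.15-fold above Orc4 in footprint density and 8.11-fold above it in total RNA density. In GINS, Gins4 stood 6.55-fold above Gins3 in footprints and 7.45-fold in total RNA. In MCM2-7, Mcm5 stood 3.61-fold above Mcm2 in footprints and 4.21-fold in total RNA. Per kb of principal transcript, the latter was 2.41-fold, and Mcm4 was the lowest subunit, 3.21-fold below Mcm5. Over the 3 subunits among the members (Pold1, Pold2 and Pold3), polymerase delta was the most even of the 7 complexes. Pold2 stood 1.57-fold above Pold3 in footprints and 1.82-fold in total RNA. Pold4, its remaining subunit, was not in this comparison. It was at 3.36 and 2.33 CPM in RPF (328 coding bases) and 2.25 and 2.99 CPM in total RNA (1164 exon bases). The evenness is thus that of these 3 subunits and not of the whole enzyme. The spread over subunits, as the SD of log2 density averaged over replicates, was smaller in RPF than in total RNA in 3 of the 7 complexes. For the origin recognition complex it was 1.04 and 0.99 in the RPF libraries and 1.35 and 1.29 in total RNA. For MCM2-7 the order was the other way, with 0.75 and 0.80 in RPF and 0.69 and 0.76 in total RNA. With principal transcript length for total RNA, the spread of the origin recognition complex there was 1.07 and 1.01, close to RPF. That of polymerase delta, 0.50 and 0.35 in total RNA and 0.47 and 0.26 in RPF, became 0.31 and 0.16, below RPF. The count of complexes was then 2; it fell to 1 with exon length as the divisor for RPF, and to 1 without RPF replicate 2.

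**Figure D3:**
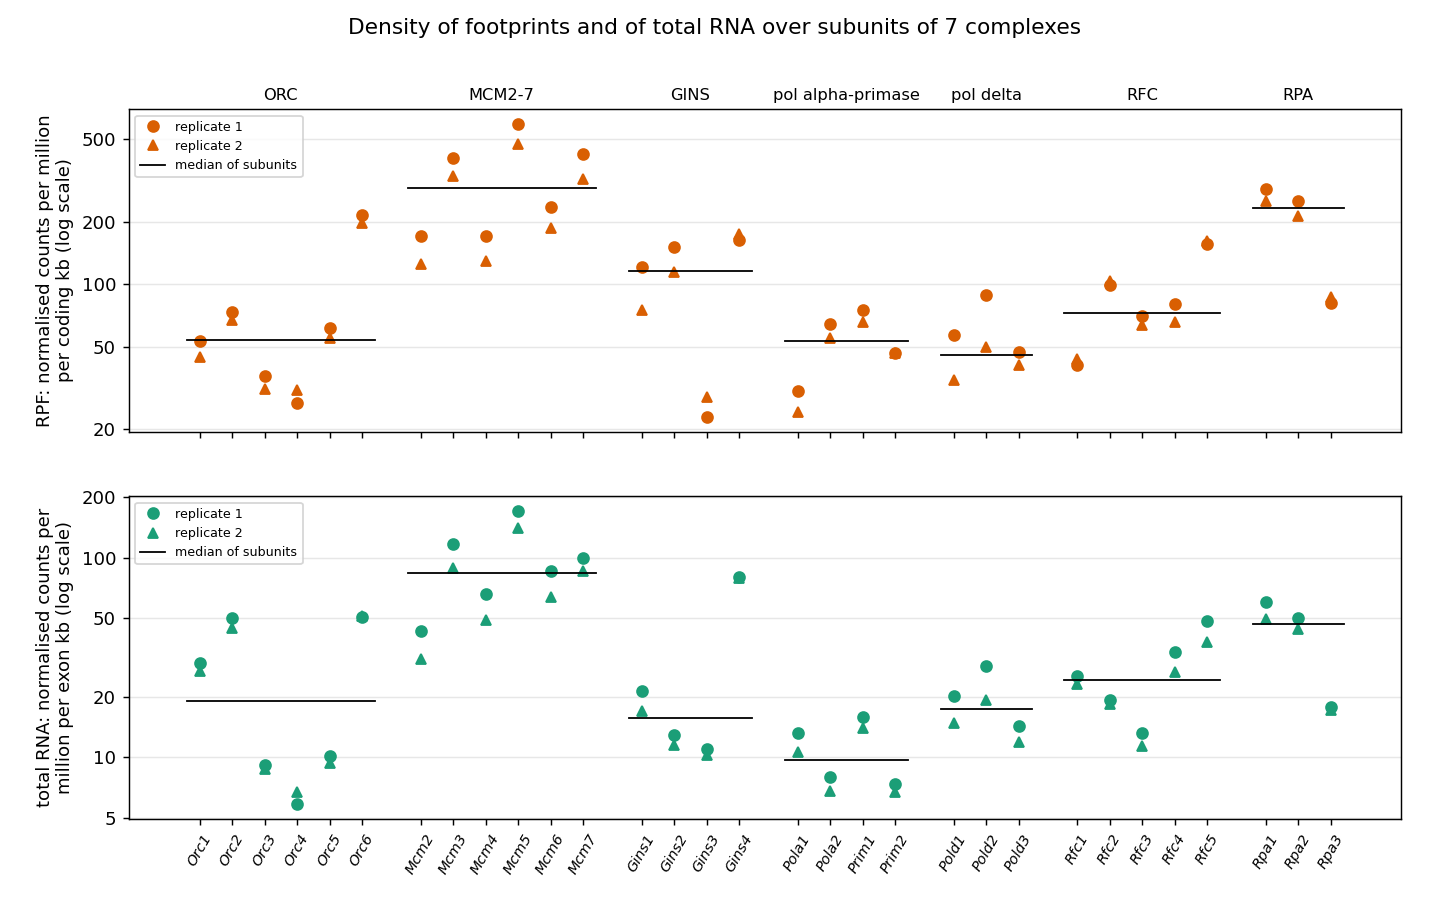
Density of footprints (upper panel, normalised CPM per coding kb) and of total RNA (lower panel, normalised CPM per exon kb) over the member subunits of 7 complexes, on log axes. Circles are replicate 1, triangles replicate 2 and horizontal lines the median of the subunits shown. The MCM2-7 line in the upper panel (290) stands above all others, and Gins3, Orc4 and Pola1 lie lowest in their complexes there.

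The coding share of a transcript bears on a ratio of footprints to total RNA, because footprints come mostly from coding sequence and total RNA from the whole transcript. The median coding share of the principal transcript was 69.1% in the members and 53.0% in 12655 tested coding genes, and over the union of exons it was 39.9% and 35.8%. Across genes, which are not independent replicates, the ratio and the principal transcript's coding share had a Pearson r of 0.41 in the 45 members and of 0.24 in the coding genes. After a loess correction for that share, 27 members were higher and 1 was lower, beside 22.2% and 16.3% of all genes tested, and the distance between the members' and the all-gene median was 0.51 in place of 0.69. Under that correction the calls of Mcm2, Gins3, Prim1, Pold1 and Top2a were lost. With the union of exons, 28 members were higher and 1 was lower (21.5% and 18% of all), at a distance of 0.61. The calls of Mcm2, Gins3, Pold1 and Top2a were lost there, while 3 other members newly passed. With exon length added, 23 were higher and 3 were lower (17.5% and 18.3% of all), at a distance of 0.59. The 8 calls lost under this last setting were those of Orc6 (0.33), Gins1 (0.51), Pold1 (0.69), Pold2 (0.59), Pole2 (0.55), Rfc4 (0.41), Rpa3 (0.11) and Fen1 (0.34), while Orc3, Orc5 and Mcm10 passed as higher and Gins4 as lower. Gmnn kept its call at 0.68.

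Most members were at a higher level in replicate 1 than in replicate 2. In total RNA, 43 of the 45 members were higher in replicate 1 than in replicate 2, and in RPF 36 were, with 35 in both. Over all tested genes, 48.6% were higher in replicate 1 in total RNA, 49.5% in RPF and 33.5% in both. The median difference of the members was 0.23 (log2) in each fraction. Fold differences between replicates of at least 1.5 were seen in 4 members in RPF and in none in total RNA. In bulk samples, fewer cells in S phase and less RNA per cell cannot be told apart, and with 1 library per replicate and fraction the difference has no test. The labels do not say which of the 2 hairpins each replicate received, so a difference between hairpins cannot be told apart from these either.

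**Figure D4:**
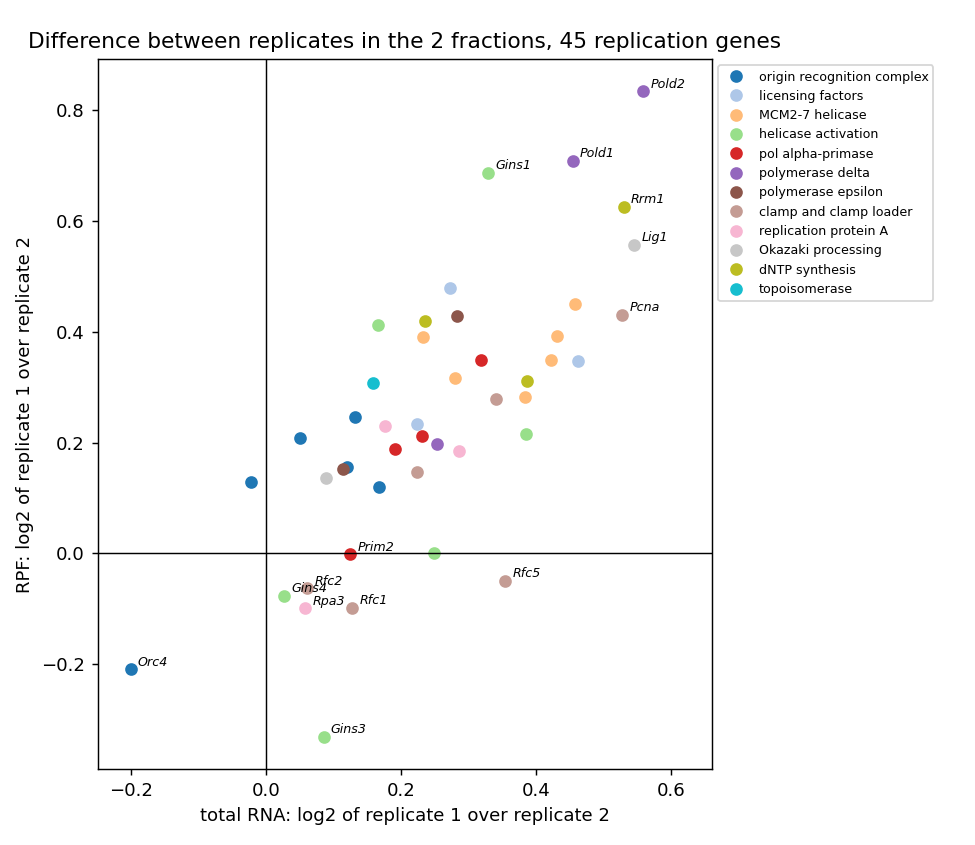
Difference between replicate 1 and replicate 2 (log2) in total RNA (horizontal axis) and in RPF (vertical axis) for the 45 replication genes, coloured by complex. Most points (35) lie to the upper right of the zero lines, where both fractions are higher in replicate 1; Pold2 lies farthest out and Orc4 and Gins3 lie lowest.

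A list of 50 other replication genes, outside the 45, had a lower median ratio. Of these, 14 were higher in RPF (28%), 4 were lower and 32 did not pass, with a median ratio of 0.33; the tested genes as a whole had 20.5% higher and 21.2% lower. Among 11 genes of origin firing and helicase loading, 2 were higher and 2 were lower, with a median of 0.036. Topbp1, a scaffold that brings Cdc45 to the licensed helicase, was at 128 and 152 CPM in RPF and at 332 and 306 CPM in total RNA (-1.19 ± 0.16, adjusted p = 0.00185, edgeR). Dbf4, the activator of the Cdc7 kinase that phosphorylates MCM, was named after its value was seen and was lower as well (-0.72 ± 0.14, adjusted p = 0.00743, edgeR). Mcmbp, an MCM-binding protein, was the highest of these (0.67, adjusted p = 0.0332, edgeR). The 3 licensing factors were all higher; the difference between them and the origin firing genes was not tested.

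Among 18 replisome and accessory genes, 5 were higher and 2 were lower. Rnaseh2c, a subunit of the nuclease that removes ribonucleotides from DNA, was at 50.8 and 36.9 CPM in RPF and at 17.7 and 16.3 CPM in total RNA (1.37 ± 0.21, adjusted p = 0.00291, edgeR). Chtf8, a subunit of the alternative clamp loader, was at 75.4 and 75.7 CPM in RPF and at 142 and 124 CPM in total RNA (-0.82 ± 0.14, adjusted p = 0.00431, edgeR). Other identifiers overlap 100% of the Chtf8 exons, so its value is uncertain, and with the principal transcript's coding share corrected it was -0.088 (adjusted p = 0.645, edgeR). For Rnaseh2c, exons of Kat5 overlap 24.8%. All 7 genes of chromatin assembly and maintenance methylation had ratios above 0, and 3 of them passed. Nasp, a histone H3-H4 chaperone, had the highest ratio, with 1411 and 1088 CPM in RPF and 529 and 432 CPM in total RNA (1.38 ± 0.21, adjusted p = 0.00315, edgeR). Chaf1a had the lowest (0.36, not passed), but exons of Ubxn6 overlap 52.5% of its exons, so its value is uncertain.

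Of 7 further nucleotide supply genes, 3 were higher and 4 did not pass. Thymidine kinase 1 (Tk1) had the highest ratio (1.09 ± 0.26, adjusted p = 0.0145, edgeR). Of 7 licensing control genes, Cdk2 alone passed (0.52, adjusted p = 0.0335, edgeR). The lowest ratio in that group was that of Ccne2, cyclin E2 (-0.59 ± 0.27, adjusted p = 0.117, edgeR).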

How the data were processed

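Per the labels, ribosome-protected fragments and total RNA of J1 knockdown cells were prepared with a TruSeq Ribo Profile kit after Ribo-Zero Gold depletion, reads were 50 bp, and each RPF library was sequenced in 4 runs. The authors deposited raw counts per gene in the form HTSeq writes. Per the submitters' processing notes, the tools include HTSeq 0.11.2, TopHat2 2.1.1, Bowtie 1.2.3 and edgeR 3.26.8 and the build is mm9; the sources used here do not give the annotation release, counted feature or strand setting. Tallies that name no gene were left out. Among them were alignments that were not unique, 2918537 and 2451435 in RPF and 2518787 and 2403701 in total RNA. Ambiguous reads made up 6.8% and 11.8% of gene plus ambiguous counts in RPF and 1.26% and 1.25% in total RNA.

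Identifiers were matched to GENCODE M21 without version (32621 of 37311, 87.4%), which supplied lengths and start codons on GRCm38, another build than that of the counts. RPF was compared with total RNA in edgeR 4.0.16 (R 4.3.3, limma 3.58.1) by a two-sided quasi-likelihood test of fraction alone, after filterByExpr (minimum count 10, minimum total 15) and TMM scaling (0.821 and 0.902 for RPF, 1.14 and 1.18 for total RNA), with Benjamini-Hochberg adjustment over 13809 genes at 0.05. The SE is the size of the log2 ratio over the square root of F. A count of 0 allows 3 counts, 0.318 to 0.394 CPM; every member lay above this. On counts simulated with 1 common replicate spread, the pipeline called 41 of 97 genes with a true log2 change of 1 in size. It called 89 of 93 with a change of 2 and 2 of 13236 with none. A gene that did not pass may therefore still differ between the fractions. With 2 replicates per fraction, p-values measure only the spread between these libraries. Members, lists and tests were chosen with earlier results of these data known. All members could be named; per group the highest and lowest ratio were given in every library, and of the other replication genes the highest and lowest with a mean of at least 10 CPM, except 1 gene that is not reported here. Alternatives were other scalings and filters, limma-voom, DESeq2 1.42.0, glmTreat at 1.5-fold, the replicate number as a block, leaving out each library, and loess corrections (span 0.5) for coding share, alone or with exon length. A correction for the coding share of the principal transcript, and that transcript's length as a divisor, were added after seeing the data.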

Additional observations from a re-analysis of the deposited data

How the results depend on the processing

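All 30 called members kept their sign in every alternative, and 8 kept their call in every one. With library size only, 1223 genes were higher and 4961 lower, members counted 11 and 7, other replication genes 5 and 11, and the members' median was 0.23. With glmTreat the counts were 1155 and 1549 genes, 9 and 0 members (0 lower also at an unadjusted p under 0.05 in that test, 2 in DESeq2 with adjustment) and 5 and 1 other replication genes. With the replicate number as a block they were 4257 genes higher, 34 members higher and 4 lower, and 27 and 9 other replication genes. All 30 called members kept their call there. The sources used here do not say whether same-numbered libraries of the 2 fractions came from one lysate. Their deviations correlated with r = 0.44 across genes, and the main test left the number out. Corrections for coding share left 1 lower member each, and adding exon length gave 7 lower other replication genes. The number of complexes with a smaller spread in RPF was 1 with exon length as divisor.

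Leaving out each library in turn, higher genes ranged from 1720 to 3341 and lower genes from 1857 to 3440, higher members from 14 to 34 and lower members from 0 to 2, higher other replication genes from 8 to 25, and complexes with a smaller spread in RPF from 1 to 4. The lowest counts came without total RNA replicate 2 (lower members also without total RNA replicate 1, with 1 at an unadjusted p under 0.05), and the lone library is then assumed to vary like the others; 25 and 1 came without RPF replicate 2. Among the genes reported, reversals past the threshold were Gins4 with coding share and exon length (-0.52, adjusted p = 0.0191), Rfc2 with the principal transcript's coding share (0.50, adjusted p = 0.0218), and Ccna2 with library size only (-0.42, adjusted p = 0.0414). Where no value above shows it, the cause was not tested. With 117 counts or more per member and library, replicate spread (biological coefficient of variation 0.172) and the 2 libraries per fraction limit the precision.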
